A study of Arabidopsis thaliana with 4 samples.

Results

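The chloroplast keeps a small genome of its own, and part of that genome encodes subunits of the photosynthetic machinery. The analysis covers 42 of the 33557 genes in the authors' deposited tables, namely those with a plastid locus identifier whose table name begins with PSA, PSB, PET, ATP, NDH or RBCL. They are 5 genes of photosystem I, 14 of photosystem II, 4 of the cytochrome b6f complex, 6 of the chloroplast ATP synthase, 12 of the NADH dehydrogenase-like (NDH) complex and 1 of Rubisco. The gene named PSBG in the tables (ATCG00430) carries the name ndhK in the reference annotation, so it was counted with NDH.

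Whole Arabidopsis thaliana seedlings of hdp3-2 and of asil1-2 gave 2 RNA-seq libraries per mutant, with Col-0 wild type as the control. The work concerns a Harbinger-type transposase that the plant has put to its own use and trihelix DNA-binding factors, the family of ASIL1, and asks whether HDP3 and ASIL1 have overlapping effects on transcription. Per the labels the mutants were 14 days old, raised at 22 °C on medium with 2% sucrose in long days (16 h light, 8 h dark), and the labels describe no second mutation or treatment. The Col-0 libraries belong to another deposition, which the design text gives the same seedling age, and how many there were is not stated in the labels.

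The tables hold 1 FPKM value per genotype, that is a fragment count divided by transcript length and sequencing depth, so no spread between libraries can be shown and depth is unknown. A gene is called, and said to have risen or fallen, at a Cuffdiff q under 0.05. Log2 fold changes are mutant over Col-0, from FPKM, and dividing each by its deposited statistic gave a standard error (SE). Nothing in the labels says that libraries came from separate plants, so the spread behind each p may be technical. ASIL1 (AT1G54060) was at 4.16 FPKM in asil1-2 and 22.9 FPKM in Col-0 in the authors' deposited table (q = 0.00165 by Cuffdiff). The hdp3-2 label has no such check, because the tables and the reference names do not pair HDP3 with a locus. Leaf genes such as RBCS1A and LHCB1.1 and the root genes PYK10 and IRT1 were above 0 in each genotype.

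In the light reactions, photosystem II takes electrons from water, the cytochrome b6f complex passes them on, and photosystem I lifts them to ferredoxin, while the ATP synthase uses the proton gradient that results. The NDH complex returns electrons from ferredoxin to the plastoquinone pool, and Rubisco fixes carbon dioxide. Each of these assemblies joins plastid-encoded core subunits to subunits imported from the cytosol. Most plastid photosynthesis genes are transcribed in multi-gene units by the bacterial-type plastid RNA polymerase, which takes its core from the plastid genome and its sigma factors from the nucleus.

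Some neighbouring genes share bases, and their values are less certain because the tables give both genes of such a pair the same span. NDHF is likewise listed with the span of YCF1.1 (Pt:109405-112638), which is at 0 in every genotype. The reading frames of psbD and psbC share 53 bases, and those of atpB and atpE share 4. These overlaps are shown because PSBC and ATPB were called and their partners were not. In the first sequence the capitals mark the start codon of psbC and the stop codon of psbD (plastid genome, Pt:33720-33772, plus strand), and in the second the bases shared by both frames (Pt:52647-52676, minus strand), both from the RefSeq copy of TAIR10.1 with positions counted from 1.
psbD/psbC: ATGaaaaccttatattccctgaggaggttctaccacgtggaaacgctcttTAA
atpB/atpE: gtaaattgaagaaATGAccttaaatctttg

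The sequences just upstream of psbA and rbcL are shown because these genes had the highest FPKM of the tested members in all 3 genotypes. Each runs 150 bases up to the start codon, at Pt:1445-1594 on the minus strand for psbA and at Pt:54808-54957 on the plus strand for rbcL, in the same genome copy. Capitals mark the motifs TTGACA and TATACT, and a search was also made for the related motif TATAAT. Such letters are typical of promoters of the bacterial-type polymerase.
psbA: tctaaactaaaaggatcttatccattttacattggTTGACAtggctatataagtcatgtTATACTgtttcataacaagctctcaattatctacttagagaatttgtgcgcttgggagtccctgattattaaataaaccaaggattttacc
rbcL: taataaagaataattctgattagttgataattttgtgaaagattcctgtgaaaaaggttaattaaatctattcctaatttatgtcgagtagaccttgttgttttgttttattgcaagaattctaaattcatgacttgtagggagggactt
Upstream of psbA the motif TTGACA began 115 bases and TATACT 91 bases before the start codon, and these printed bases of rbcL hold none of the 3 motifs. Over windows of 250 bases, searched on both strands, TTGACA was found at 14.6% of the 41 distinct members and at 15.4% of all 78 plastid protein genes. TATAAT was found at 43.9% of the members and at 42.3% of all, and TATACT at 17.1% and 16.7%. None of the 3 motifs overlaps another in the windows printed. All windows end at start codons, and transcription starts were not examined. A window without a motif therefore does not show that a promoter is lacking.

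In hdp3-2 the plastid photosynthesis genes were higher than in Col-0 across the complexes. Of the 42, 30 were tested by the authors, and 11 of these rose and 0 fell, where 1.3% of all 20177 tested genes rose, 1.78% fell and 3.08% did either. The 11 were PSAA, PSAB, PSBA, PSBB, PSBC, PSBH, PETB, ATPA, ATPB, NDHA and RBCL, so every complex held at least 1. The median log2 fold change over the 29 members with FPKM above 0 in both genotypes was 0.95, a fold of 1.94, beside -0.06 over all tested genes. Values were positive in 28 of the 29, beside 41.3% of all tested genes, and at least 2-fold in 14, beside 1.73%. The other plastid genes had a median of 0.83, with 25 of 26 positive. Mitochondrial genes had a median of 1.69, with 23 of 24 positive, so higher values were not particular to the photosynthesis genes. More plastid RNA per cell and a larger share of plastid-rich cells cannot be told apart in RNA of whole seedlings. Because the Col-0 libraries belong to another deposition, genotype also cannot be told apart from differences between the depositions, such as in library preparation. With at least a 2-fold change as well, 7 of the 11 calls were left, counting PSBH, which is listed at 0 in Col-0 and has no fold change. With a normal reading of the authors' statistic 5 were left, and PSBH, which has no statistic, could not be read that way. When FPKM was rescaled so that nuclear genes summed to the same value in both genotypes, the hdp3-2 median was 0.42. That rescaling rests on 4 nuclear genes of at least 100000 FPKM, and without them it gave 1.03.

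**Figure D1:**
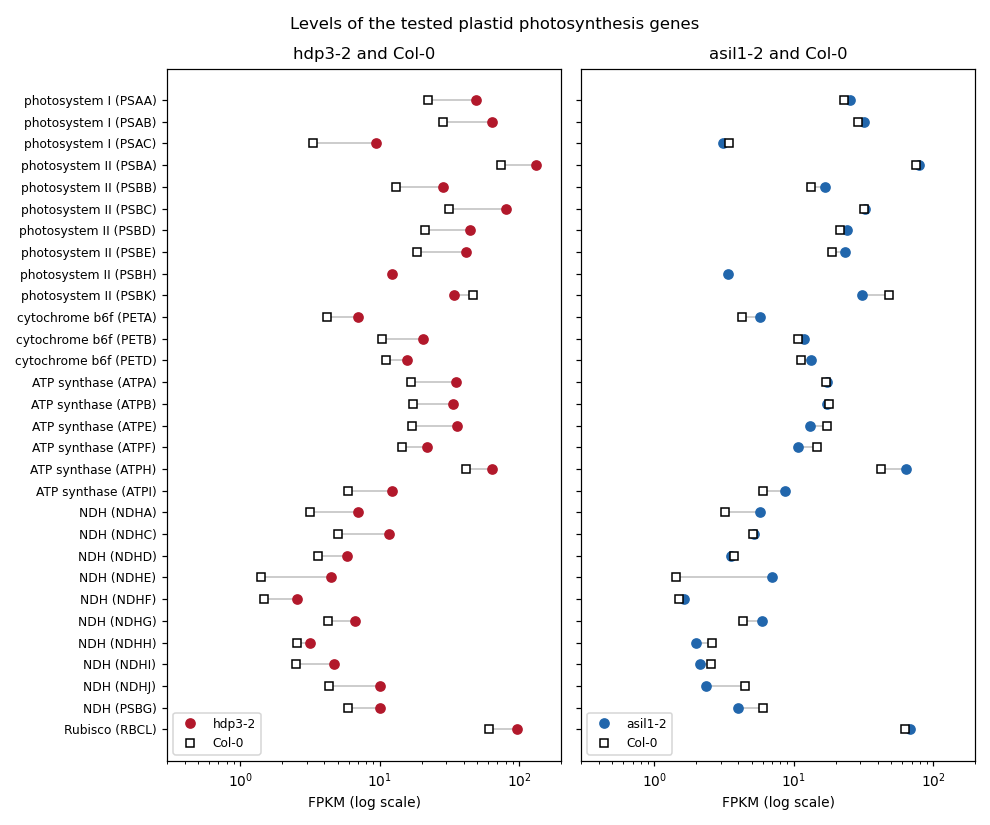
FPKM (log scale) of the 30 tested plastid photosynthesis genes, 1 row per gene by complex, with hdp3-2 and Col-0 on the left and asil1-2 and Col-0 on the right, filled circles for the mutant and open squares for Col-0. All but PSBK lie to the right of Col-0 in hdp3-2, and PSBH has no square because it is listed at 0 in Col-0.

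Photosystem I is built on PSAA and PSAB, the paired proteins that carry its reaction centre. PSAA (ATCG00350, Pt:39605-41857) was at 48.9 FPKM in hdp3-2 and 22.4 FPKM in Col-0 in the authors' deposited table, a log2 fold change of 1.13 ± 0.28 (SE). PSAB (ATCG00340, Pt:37375-39579) was at 63.96 FPKM in hdp3-2 against 28.5 FPKM in Col-0 in the same deposited table, or 1.16 ± 0.28. These neighbours therefore moved by nearly the same amount, each with q = 0.00374 by Cuffdiff. PSAC, the iron-sulfur subunit that hands electrons to ferredoxin, had a larger but poorly determined value of 1.498 ± 1.53 (9.47 FPKM in hdp3-2, 3.35 FPKM in Col-0 in the authors' deposited table) and was not called. The small subunits PSAI and PSAJ are listed at 0 in every genotype and were not tested.

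In photosystem II 4 of 7 tested genes rose. PSBC (ATCG00280), an inner antenna protein that binds chlorophyll, had the largest log2 fold change of the called members with a value, 1.37 ± 0.35, at 81.2 FPKM in hdp3-2 and 31.3 FPKM in Col-0 in the authors' deposited table. Its partner antenna PSBB (ATCG00680, Pt:72371-73897) rose by 1.103 ± 0.30, with 28.3 FPKM in hdp3-2 against 13.2 FPKM in Col-0 in the authors' deposited table. PSBA (ATCG00020, Pt:383-1444), the reaction centre protein that is replaced fastest under light, stood at 131.7 FPKM in hdp3-2 and 73.9 FPKM in Col-0 in the authors' deposited table. Its log2 fold change of 0.83 ± 0.27 was below the median of the members. Its reaction centre partner PSBD, which overlaps PSBC, had 1.06 ± 0.61 and was not called (q = 0.221 by Cuffdiff). PSBE, a subunit of the photosystem's own cytochrome, had 1.16 ± 0.80.

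PSBH and PSBK stood apart within photosystem II. PSBH (ATCG00710, Pt:74485-74706), a small phosphoprotein, was listed at 12.3 FPKM in hdp3-2, 3.41 FPKM in asil1-2 and 0 in Col-0 in the authors' deposited tables, so no fold is given. It was called in hdp3-2 (q = 0.00374 by Cuffdiff) and not in asil1-2 (q = 0.164). A value of 0 in such a file can be a failed estimate, and the next genes of the same unit, PETB and PETD, were listed well above 0 in Col-0. PSBK, a small subunit, was the 1 member below Col-0 in hdp3-2, at 34.3 FPKM against 47.1 FPKM in Col-0 in the authors' deposited table, with a log2 fold change of -0.46 ± 1.20. In asil1-2 it was at 30.8 FPKM and in Col-0 at 47.97 FPKM in the authors' deposited table, or -0.64 ± 1.18.

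In the cytochrome b6f complex 1 of 3 tested genes rose. PETB (ATCG00720), which encodes cytochrome b6, was at 20.3 FPKM in hdp3-2 and 10.5 FPKM in Col-0 in the authors' deposited table, a log2 fold change of 0.95 ± 0.37, and its q of 0.0487 in the Cuffdiff test lay just inside the threshold. PETA (cytochrome f) had 0.72 ± 0.43 and PETD, the subunit that completes the membrane core, 0.50 ± 0.49. These 2 were not called, and PETG is listed at 0 throughout.

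All 6 ATP synthase genes were tested, and 2 rose. They encode the alpha and beta subunits, which together form the catalytic head. ATPA (ATCG00120, Pt:9938-11461) was at 35.4 FPKM in hdp3-2 and 16.7 FPKM in Col-0 in the authors' deposited table (1.08 ± 0.30), and ATPB (ATCG00480) at 33.7 FPKM against 17.4 FPKM in Col-0 (0.95 ± 0.32). ATPE, the epsilon subunit that shares a span with ATPB, had 1.08 ± 1.00. The membrane subunits ATPI, ATPH and ATPF had 1.04 ± 0.44, 0.62 ± 0.68 and 0.60 ± 0.41. ATPI was nearest to a call, with q = 0.0631 by Cuffdiff.

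The NDH genes had low levels, from 1.41 to 5.94 FPKM over the 10 tested in Col-0 in the authors' deposited table, a range that PSAC and PETA shared. Of 10 tested, NDHA (ATCG01100, Pt:119847-122009), a membrane subunit, rose, with 7.05 FPKM in hdp3-2 against 3.16 FPKM in Col-0 in the authors' deposited table and a log2 fold change of 1.16 ± 0.45. All 10 had positive values in hdp3-2, with a median of 0.84. They ran from 0.32 ± 0.49 in NDHH to 1.67 ± 1.52 in NDHE, whose SE is nearly as large as its change. At an unadjusted Cuffdiff p under 0.05 there were 6 NDH genes, and 20 of all 30 tested members, all higher, beside 12.9% of all tested genes in either direction and 4.45% higher.

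RBCL (ATCG00490, Pt:54958-56397), the large subunit of Rubisco, was at 96.4 FPKM in hdp3-2 and 61.4 FPKM in Col-0 in the authors' deposited table. Its log2 fold change of 0.65 ± 0.28 was the smallest among the called members, with q = 0.0409 by Cuffdiff.

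**Figure D2:**
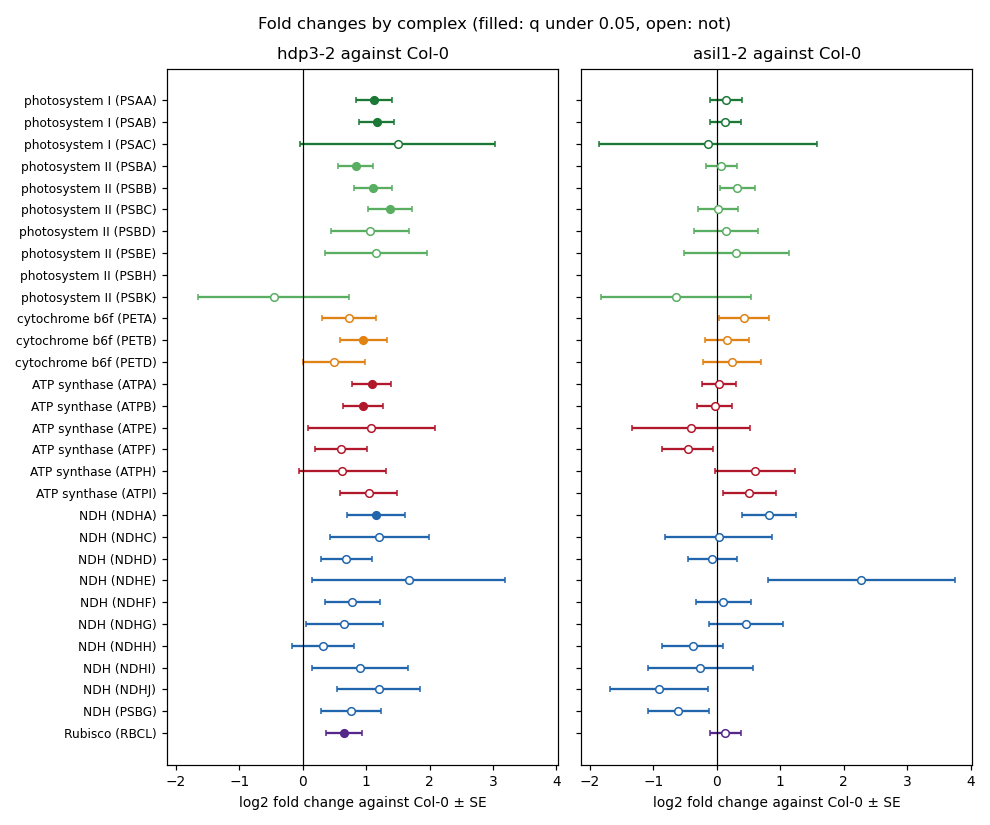
Log2 fold change of each tested gene with FPKM above 0 in both genotypes, with the SE as bars and colours for complexes, in hdp3-2 (left) and asil1-2 (right). Filled points have a q under 0.05, of which hdp3-2 shows 10 between 0.65 and 1.37 and asil1-2 shows 0.

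A call depends on both the fold change and its SE. The 10 called members with a fold change had SE from 0.27 to 0.45, and the 19 others from 0.40 to 1.53. Of those 19, 14 had a log2 fold change above that of RBCL, the smallest called, and 5 lay above the median of the called members. The median was 1.09 in the called members and 0.78 in the others. Across the 29 members the SE in hdp3-2 was lower in longer genes (Spearman's rho -0.85). The fold change had rho 0.02 with coding length and -0.12 with the Col-0 level. Noise in that level, the denominator of the fold change, makes the last value more negative by construction. These correlations are across genes of the same libraries, and genes are not independent replicates. The median coding length was 1469 bases in the called members and 519 in the others. The 4 tested genes with introns (ATPF, PETB, PETD and NDHA) had a median of 0.78 in hdp3-2, and the 25 without introns 1.04, a difference that was not tested.

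**Figure D3:**
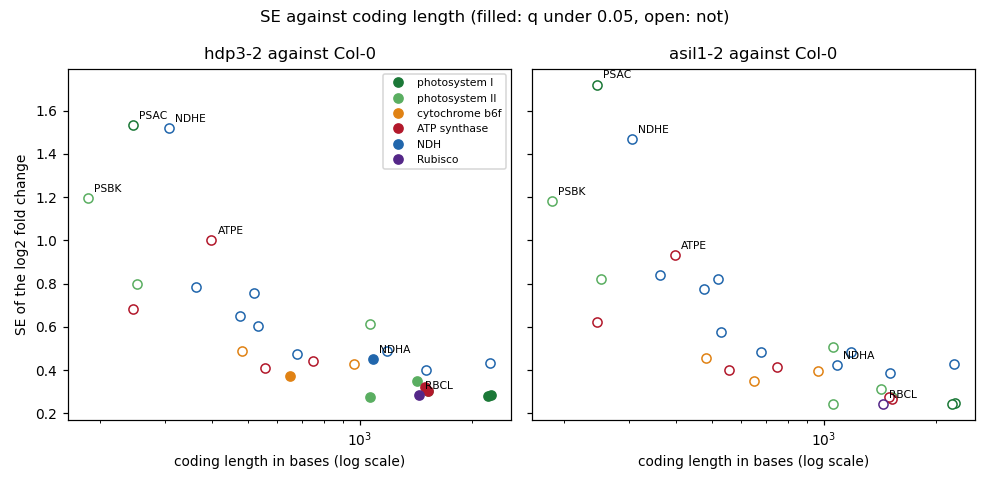
SE of the log2 fold change against coding length in bases (log scale) for the 29 members with a value, in hdp3-2 (left) and asil1-2 (right), filled where the q was under 0.05. In hdp3-2 the filled points all lie at SE of 0.45 or less, and the short genes PSAC, NDHE and PSBK lie highest.

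In asil1-2 no plastid photosynthesis gene was called. Of the 30 tested, 0 rose and 0 fell by Cuffdiff at a q under 0.05, where 2.71% of all 20205 tested genes rose, 5.72% fell and 8.42% did either. At an unadjusted p under 0.05 there were 2 members, PSBH and NDHA, both higher, beside 20.1% of all tested genes in either direction and 6.61% higher. NDHE alone was at least 2-fold higher, beside 2.36% of all genes. The median log2 fold change was 0.10 over 29 members, beside -0.08 over all tested genes, and 19 of 29 were positive, beside 39.7% of all. It was 0.49 with nuclear FPKM sums made equal, and 0.21 when that left out 3 nuclear genes of at least 100000 FPKM, so the members' median in asil1-2 lay above that in hdp3-2 under the first scaling and below it under the second.

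The 8 members with the smallest SE in asil1-2 were PSBA, RBCL, PSAB, PSAA, ATPA, PSBB, ATPB and PSBC. PSBA was at 79.1 FPKM in asil1-2 and 75.3 FPKM in Col-0 in the authors' deposited table (0.07 ± 0.24), and RBCL at 68.5 FPKM in asil1-2 against 62.5 FPKM in Col-0 (0.13 ± 0.24). PSAA had 0.15 ± 0.25, PSAB 0.13 ± 0.24, PSBC 0.02 ± 0.31, ATPA 0.04 ± 0.27 and ATPB -0.03 ± 0.28. Each of these 7 was closer to 0 than its SE, and PSBB, at 0.32 ± 0.27, was not. The largest values were in NDH genes. NDHE was at 6.998 FPKM in asil1-2 and 1.44 FPKM in Col-0 in the authors' deposited table, or 2.28 ± 1.47. NDHA was at 5.71 FPKM in asil1-2 against 3.22 FPKM in Col-0 in the authors' deposited table, or 0.83 ± 0.42 (q = 0.0720 by Cuffdiff). The lowest of all members was NDHJ at -0.91 ± 0.78, with 2.37 FPKM in asil1-2 and 4.44 FPKM in Col-0 in the authors' deposited table.

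Elsewhere the extremes of each complex in asil1-2 were PSAC at -0.14 ± 1.72 in photosystem I, PSBB, given above, and PSBK at -0.64 ± 1.18 in photosystem II, PETA at 0.43 ± 0.39 and PETB at 0.16 ± 0.35 in cytochrome b6f, and ATPH at 0.60 ± 0.62 and ATPF at -0.46 ± 0.40 in the ATP synthase. None of these was called.

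By complex, the medians in asil1-2 were 0.13 for photosystem I, 0.11 for photosystem II, 0.24 for cytochrome b6f, 0.00 for the ATP synthase and -0.02 for NDH, and RBCL had 0.13. In hdp3-2 they were 1.16, 1.08, 0.72, 0.99 and 0.84, and RBCL had 0.65. The comparisons share the Col-0 libraries, so their values are not independent.

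A test of the mutants against each other used, for each gene, the log2 fold change in hdp3-2 minus that in asil1-2. Over 29 members the difference was positive in 28, beside 54.5% of 19977 genes, with a median of 0.80 beside 0.03 over all. In the z test with Benjamini-Hochberg adjustment 0 members passed, where 0.13% of all genes did and 0.105% did with the higher value in hdp3-2. At an unadjusted p under 0.05 there were 8, all higher in hdp3-2, beside 0.681% of all genes. The SE used counts the shared Col-0 libraries in each arm, which makes it too large. An SE taken from the authors' p would also be smaller, by a median factor of 1.41 for hdp3-2 and 1.42 for asil1-2. With the summed variance multiplied by 0.5, 4 members passed, beside 0.626% of all genes in either direction and 0.28% higher in hdp3-2. They were PSBC (difference 1.35), PSAB (1.03), ATPA (1.04) and PSAA (0.98), each higher in hdp3-2, with adjusted p from 0.0132 to 0.0422 in that z test. NDHE was the 1 member with a lower value in hdp3-2, at -0.61 with an SE of 2.11.

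Members that are transcribed together were compared next, with the units taken from textbook maps. In hdp3-2 PSAA and PSAB both rose, as given above, and all 3 genes of the ndhC unit were positive, at 1.21 ± 0.78 (NDHC), 0.76 ± 0.47 (PSBG) and 1.20 ± 0.65 (NDHJ). The same unit in asil1-2 had 0.03 ± 0.84, -0.61 ± 0.48 and -0.91 ± 0.78. In the psbB unit the log2 fold changes in hdp3-2 were 1.103 for PSBB, 0.95 for PETB and 0.50 for PETD in the order of the genes. PSBT, which was not tested, and PSBH, which was called in hdp3-2, lie between PSBB and PETB and have no fold change. The ndhD to ndhH unit, which includes PSAC, had a median of 0.90 in hdp3-2 and -0.07 in asil1-2. In the atp unit, ATPI and ATPA had 1.04 and 1.08 in hdp3-2 and the genes between them, ATPH and ATPF, 0.62 and 0.60. These steps between neighbours were not tested, and the SEs are given above.

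**Figure D4:**
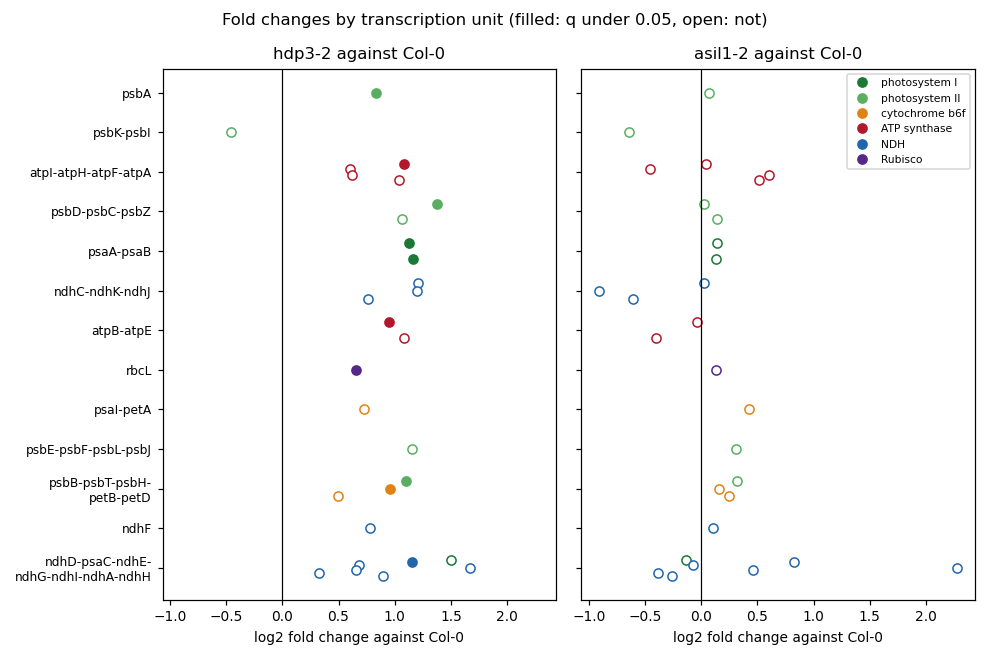
Log2 fold change of members grouped by transcription unit, in hdp3-2 (left) and asil1-2 (right), filled where the q was under 0.05 and coloured by complex. Units other than psbK-psbI lie to the right of 0 in hdp3-2, and in asil1-2 units lie on both sides of 0.

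The 12 members without a test were of 2 kinds. Of these, 10 are genes of 102 to 135 coding bases, while the tested members have 186 or more. They are PSAI, PSAJ, PSBF, PSBI, PSBJ, PSBL, PSBM, PSBN, PSBT and PETG, which encode small membrane subunits. All are listed at 0 in every genotype except PSBF, at 303668 FPKM in hdp3-2, and PSBL, at 261778 FPKM in asil1-2, in the authors' deposited tables. Values of this size stood in 7 genes of the hdp3-2 table and 4 of the asil1-2 table, all with spans of 114 to 123 bases and none called, and no reading is made of them here. The other 2 are the copies of NDHB in the inverted repeat of the plastid genome, listed at 0 throughout. The bases of the copies, 1855 in each, are 100% identical. Of 22 plastid genes of at least 150 bases with a second identical copy, 0 were tested in hdp3-2, against 58 of 64 without a copy.

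Nuclear genes for other subunits of the same complexes were examined next, with RCA, the gene of Rubisco activase, counted under Rubisco. In hdp3-2, of 46 nuclear photosynthesis genes tested, 0 rose and 1 fell, beside 1.3% and 1.78% of all genes, and the median log2 fold change was -0.14. The gene that fell was NDHT (AT4G09350), an NDH subunit of the side that binds ferredoxin, at 30.4 FPKM in hdp3-2 and 65.5 FPKM in Col-0 in the authors' deposited table (-1.11 ± 0.29). RBCS1A, a small subunit of Rubisco, had -0.15 ± 0.46. The highest of the 46 was RBCS3B, another small subunit, at 0.21 ± 0.40. The authors' deposited table lists RBCS1A at 8223 FPKM in hdp3-2 beside 96.4 FPKM for RBCL. No label states if the libraries were enriched for poly(A) RNA.

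In asil1-2, 6 of the 13 nuclear NDH genes fell and 0 rose, beside 5.72% and 2.71% of all genes, and all 13 had negative values with a median of -0.48. They were NDHT (-1.46 ± 0.26), NDHM (-0.82 ± 0.24), PNSB2 (-0.80 ± 0.25), PNSB4 (-0.75 ± 0.24), NDHS (-0.72 ± 0.24) and PNSB1 (-0.53 ± 0.25), subunits of the stromal arm and of a side subcomplex. The highest of the 46 nuclear genes in asil1-2 was RBCS3B at 0.28 ± 0.31. No nuclear gene of photosystem I, photosystem II, cytochrome b6f, the ATP synthase or Rubisco was called in asil1-2 by Cuffdiff, beside 8.42% of all genes. Of these 33 genes, 3 had an unadjusted p under 0.05, beside 20.1% of all genes. The plastid NDH genes in asil1-2 had a median of -0.02 over 10.

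**Figure D5:**
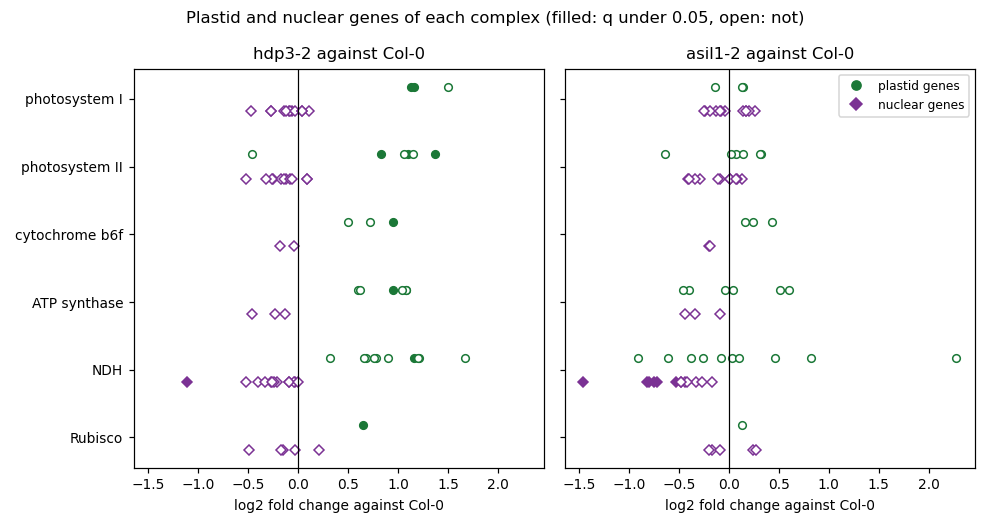
Log2 fold change of plastid (circles) and nuclear (diamonds) genes by complex, in hdp3-2 (left) and asil1-2 (right), filled where the q was under 0.05. In hdp3-2 plastid genes lie mostly right and nuclear genes mostly left of 0, and in asil1-2 the filled diamonds are the 6 NDH genes.

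Nuclear genes that transcribe the plastid genome gave no call in hdp3-2. Of 20 tested, 0 passed in hdp3-2 by Cuffdiff and 4 had an unadjusted p under 0.05, beside 12.9% of all genes. In asil1-2 2 fell, beside 5.72% of all genes. Those were SIG5 (AT5G24120), a sigma factor induced by light and stress, at -1.07 ± 0.24, and SIG1 (AT1G64860) at -0.66 ± 0.24. SIG5 in hdp3-2 had -0.53 ± 0.28 (q = 0.143 by Cuffdiff), the lowest of the list there, and PAP2, a protein attached to the polymerase, was the highest at 0.28 ± 0.28. The highest in asil1-2 was PAP10 at 0.11 ± 0.27. Of the 20, 9 had an unadjusted p under 0.05 in asil1-2, beside 20.1% of all genes. Among 11 nuclear genes for processing or stability of plastid RNA, 0 were called in either mutant by Cuffdiff, with 3 in hdp3-2 and 5 in asil1-2 at an unadjusted p under 0.05, beside the same 12.9% and 20.1% of all genes. The extremes in hdp3-2 were HCF244 at -0.56 ± 0.28 and the ribonuclease gene RNJ at 0.51 ± 0.29. Those in asil1-2 were HCF152 at -0.49 ± 0.27 and RNJ at -0.05 ± 0.26.

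Other organelle genes and marker genes of leaf and root are given beside the members, and their part in the result was not tested. The plastid genes outside the name rule, some of them for photosynthesis (YCF9, YCF3 and YCF4), had a median log2 fold change of 0.83 in hdp3-2 and 0.18 in asil1-2. Of the 26 with a fold change in hdp3-2, 25 were positive and 10 at least 2-fold, and 4 of 29 tested were called higher. In asil1-2, 0 of 28 were called by Cuffdiff and 4 had an unadjusted p under 0.05. Mitochondrial genes had a median of 1.69 in hdp3-2, with 23 of 24 positive, 22 at least 2-fold and 2 called higher. Their median Col-0 level was 0.55 FPKM. In asil1-2 their median log2 fold change was 0.09, with 0 of 16 called by Cuffdiff and 0 at an unadjusted p under 0.05. Over all tested genes in hdp3-2, 41.3% were positive, 1.73% at least 2-fold and 1.3% called higher. In asil1-2 8.42% of all were called in either direction and 20.1% had an unadjusted p under 0.05. The 4 plastid genes for RNA polymerase subunits had a median of 0.29 in hdp3-2, with a range from 0.25 to 0.48, all below the members' lower quartile of 0.68. Plastid genes for ribosomal proteins had a median of 1.17 in hdp3-2, above the members' 0.95. Of the 12 with a fold change, 11 were positive and 1 negative, and 2 of 15 tested were called higher. The 4 leaf markers summed to 24893 FPKM in hdp3-2 and 28534 FPKM in Col-0, and to 28744 FPKM in asil1-2 and 29072 FPKM in Col-0, in the authors' deposited tables, with 0 called. Of the 5 root markers 0 were called in hdp3-2 by Cuffdiff and 1 had an unadjusted p under 0.05, beside 12.9% of all genes. The median log2 fold change of these markers in hdp3-2 was 0.23. In asil1-2, 2 were higher (NRT2.1 and PRP3) and 1 lower (IRT1), with a median of 0.65. Their summed level was 857 FPKM in hdp3-2 and 1030 FPKM in Col-0, and 992 FPKM in asil1-2 and 1049 FPKM in Col-0, in the authors' deposited tables. Most of each sum was PYK10, at 819.6 FPKM in hdp3-2 and 1002 FPKM in Col-0 in the authors' deposited table, with a log2 fold change of -0.29 ± 0.34. The other 4 root markers had positive values in hdp3-2, from 0.17 ± 0.36 in PRP3 to 0.88 ± 0.47 in IRT1.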

How the data were processed

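The libraries hold RNA of hdp3-2 and asil1-2 seedlings, 2 per mutant. TopHat2, Cufflinks, Cuffdiff and deepTools and the build TAIR10 are named in the submitters' processing notes, without versions or options. The FPKM values were made by the authors, with the libraries of a genotype joined into 1 value. Each table has its own scaling, and Col-0 differs by a factor of 0.982 between them. The deposited score is Cuffdiff's statistic for the gene. The p-value and q-value columns are the authors', per the file headers. No deposited table holds counts, so depth is unknown and no test over libraries was run.

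Log2 fold changes were computed from FPKM, because some cells of the fold and statistic columns hold spreadsheet errors in place of infinite values. The z value implied by the authors' p exceeded their statistic by a median factor of 1.41 for hdp3-2 and 1.42 for asil1-2, and an SE taken from p would be smaller by that factor. Calls used q under 0.05 over all tested genes. The mutants were compared with a z test, SE the root of the summed squares, adjusted by Benjamini-Hochberg over 19977 genes. The test was also run on simulated data with planted differences larger than the members' median difference. That run does not show how often the test would find differences of the members' size. The members and gene lists were chosen with earlier results of these data known. Named were called members, members listed at 0, and the extremes of each complex, and of the nuclear lists the called genes and the extremes where described. Alternatives were other thresholds, filters, pseudocounts, centring and scaling. Spans of 34 of the 42 members equal those of the reference annotation (TAIR10.1), and 41 begin with ATG there. Tables were handled in pandas 2.3.3 under Python 3.11.15, tests in SciPy 1.17.1 with NumPy 2.4.6, and plots in matplotlib 3.10.9.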

Additional observations from a re-analysis of the deposited data

How the results depend on the processing

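The 11 calls in hdp3-2 became 8 at a q under 0.01, 7 with at least a 2-fold change and 10 with 10 FPKM in the higher genotype. The 7 include PSBH, listed at 0 in Col-0. With a normal reading of the statistic, which PSBH lacks, 5 calls were left. The count stayed at 11 with a minimum of 1 FPKM or a recomputed adjustment. In asil1-2 the count was 0 under all 6 alternatives. The median in hdp3-2 was 0.42 with nuclear FPKM sums made equal, a shift of -0.54 for every gene, and lay from 0.66 to 1.03 under the other alternatives, of which the scaling without extreme values and a pseudocount over tested members were chosen after seeing the data. In asil1-2 it lay from 0.01 to 0.49. The z test of the difference passed 4 members with the summed variance multiplied by 0.5, and 0 when centred or at an adjusted p under 0.01. No called member with a fold change changed sign under any scaling tried, and the called PSBH has no fold change. Uncalled PETD and NDHH in hdp3-2 turned to -0.04 and -0.21 with equal nuclear sums. That scaling added 0.38 to every value in asil1-2. A stricter threshold or a larger SE leaves fewer calls by construction, and the cause of the 4 extreme nuclear values in hdp3-2 was not tested. No paired analysis was possible because the tables hold no values per library, and for the same reason no library could be left out. Values per gene are limited by an unknown depth, most for short genes.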

Other observations

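Some plastid genes of the same complexes bear other names in the tables and were outside the rule. YCF9 (ATCG00300), annotated as psbZ of photosystem II, was at 46.9 FPKM in hdp3-2 and 26.2 FPKM in Col-0 in the authors' deposited table, a log2 fold change of 0.84 ± 0.73 (SE), and at 10.2 FPKM in asil1-2 against 26.7 FPKM in Col-0, or -1.38 ± 1.51. It was not called in either mutant by Cuffdiff. YCF6 (petN) and ORF31 (petL), very short genes of the cytochrome b6f complex, are listed at 0 throughout. YCF3 and YCF4, which help assemble photosystem I, had 1.34 ± 1.40 and 0.62 ± 0.53 in hdp3-2 and 0.897 ± 1.43 and -0.31 ± 0.54 in asil1-2, with no call. RPS14, a ribosomal protein gene next to PSAB, rose in hdp3-2 by 1.63 ± 0.57, with 62.5 FPKM in hdp3-2 and 20.2 FPKM in Col-0 in the authors' deposited table (q = 0.0353 by Cuffdiff); it was picked after its values were seen.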
